A study of Rattus norvegicus with 10 samples.

Results

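Methylation around 2 genes of the epigenetic machinery, Dnmt3l and Chd7, was profiled in hippocampal DNA of aged rats. A tile is a stretch of 1000 bp without overlap to its neighbours, and its value is the percent methylation of the CpGs read in it. All tiles were taken that start within 100 kb on either side of the Dnmt3l promoter tile on chromosome 20 (10629001 to 10630000, mRatBN7.2) and of a Chd7 intron tile on chromosome 5 (21847001 to 21848000). A second Chd7 intron tile (21870001 to 21871000) lies 23 kb from the first. The Dnmt3l window held 56 tiles and the Chd7 window 36, of 176032 in the whole table. These 3 tiles were chosen by the study for their difference between the groups and for their relation to VO2max in the same rats, so their values are given as a description with no test. The other 55 and 34 tiles entered by position, and they are called neighbours.

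The study compared 4 high-capacity runner (HCR) rats, numbered 1, 11, 15 and 19, with 6 low-capacity runner (LCR) rats, numbered 12, 18, 22, 24, 26 and 30. All rats were female, untrained and 23 to 24 months old, and came from generation 44 of 2 lines bred out of N:NIH stock by selection on treadmill running capacity. Running capacity and line of descent cannot be told apart in this design. Each rat is 1 library of reduced representation bisulfite sequencing (RRBS), in which an enzyme that cuts at CCGG selects CpG-rich fragments, and bisulfite treatment converts unmethylated cytosines. Methylation values do not carry expression markers, so the labelled tissue was not checked by them, and bulk DNA does not separate cell types.

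DNMT3L is a member of the DNA methyltransferase family that lacks catalytic activity. It binds DNMT3A and DNMT3B, stimulates their activity, and reads histone H3 tails that are unmethylated at lysine 4. It is best known from germ cells, where it is needed for the methylation of imprinted genes. CHD7 is an ATP-dependent chromatin remodeller that slides nucleosomes at enhancers and promoters of developmental genes, and mutations in human CHD7 cause CHARGE syndrome. In mice it acts in neural progenitors, including those of the adult hippocampus.

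The promoter of Dnmt3l is shown because the tile of this gene was annotated as promoter. The RefSeq sequence, on the minus strand of GRCr8 at chr20:10628940-10629239, runs from 250 bases before to 50 bases after the annotated start, with each CpG in capitals.
Dnmt3l: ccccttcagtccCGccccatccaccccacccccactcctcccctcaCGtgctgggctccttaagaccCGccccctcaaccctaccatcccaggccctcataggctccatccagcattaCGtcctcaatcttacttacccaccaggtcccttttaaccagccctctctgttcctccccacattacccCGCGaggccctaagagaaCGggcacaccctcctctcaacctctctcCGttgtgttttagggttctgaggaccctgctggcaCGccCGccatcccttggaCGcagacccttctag
These 300 bases hold 11 CpGs between positions 13 and 286. Of 33469 rat promoters of this length, 94.5% hold at least 1 CG, the median holds 7, and 39.0% hold 11 or more. The observed over expected CpG ratio was 0.516 beside a median of 0.392, and the GC content 61% beside 51.7%. The motif CCGG, which reads the same on both strands and contains the CG dinucleotide, was absent from this window and present in 51.4% of all promoters. GRCr8 is not the build of the tiles, so the position of this sequence within the tile was not determined. In RefSeq gene order Dnmt3l lies between Icoslg and Aire, the latter on the opposite strand, with Pfkl, Cfap410 and Trpm2 beyond Aire, and Chd7 lies between Rab2a and Clvs1.

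The Dnmt3l promoter tile was highly methylated in every rat. HCR rats 1, 11, 15 and 19 had 89.9, 90.5, 89.6 and 95.9%. LCR rats 12, 18, 22, 24, 26 and 30 had 81.0, 83.0, 84.2, 85.9, 86.2 and 70.8%. Every HCR rat lay above every LCR rat, with a gap of a few points between HCR rat 15 and LCR rat 26. The means were 91.5% ± 2.98 (SD, n = 4) and 81.8% ± 5.76 (SD, n = 6), a difference of 9.64 points. HCR rat 19 and LCR rat 30 stood apart at the ends of their groups. Over all tiles with a value in every rat, HCR rat 19 also had the highest mean level of the 10 rats (51.3%) and LCR rat 30 the lowest (43.9%). The difference was 8.16 points without HCR rat 19 and 7.42 points without LCR rat 30.

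The tile directly beside it, 1 kb further along the chromosome (10630001 to 10631000), had a difference in the same direction and a wider spread. Its values were 80.2, 71.7, 73.6 and 72.8% in HCR rats 1, 11, 15 and 19. In LCR rats 12, 18, 22, 24, 26 and 30 they were 47.4, 77.6, 52.7, 64.5, 61.2 and 53.4%. Only LCR rat 18 reached the HCR range, and the other 5 LCR rats lay below it. The mean was 74.6% ± 3.81 in HCR (SD, n = 4) and 59.5% ± 10.8 in LCR (SD, n = 6), a difference of 15.1 points (SE 6.05), which did not pass the test (limma, adjusted p = 0.645). On the other side, the nearest tile with values started 2 kb away (10627001) and was at 91.5% in HCR and 88.2% in LCR (difference 3.30 points, SE 4.05, limma adjusted p = 0.909). The tile 3 kb away (10626001) was at a lower level, 61.7% and 58.9%, with a difference of 2.84 points and a 95% interval from -9.76 to 15.4 points. The groups overlapped in both.

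**Figure D1:**
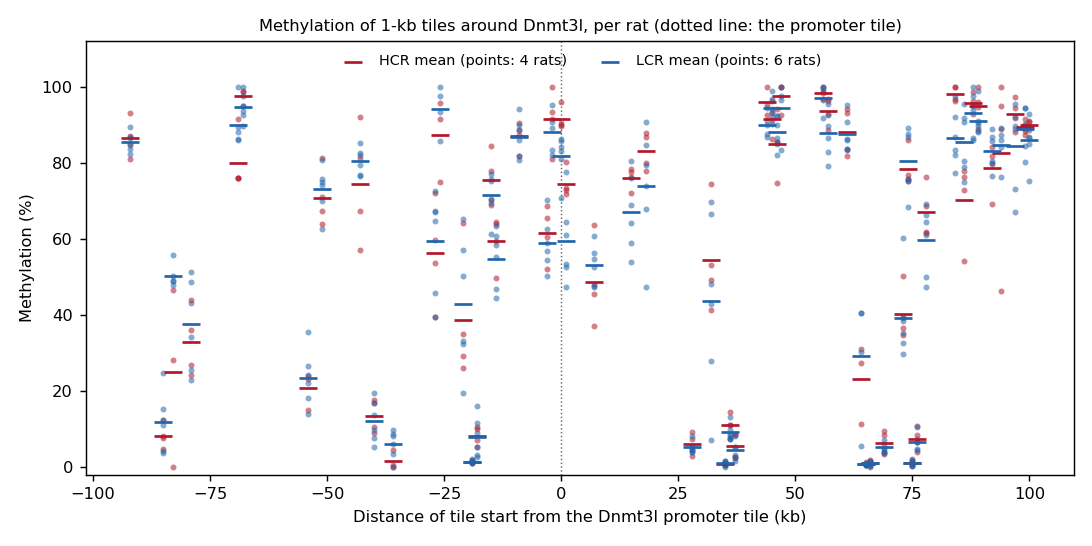
Percent methylation of each 1-kb tile (y axis) against the distance of its start from the start of the Dnmt3l promoter tile in kb (x axis, dotted line at 0). Points are single rats and short bars are the means of 4 HCR and 6 LCR rats. HCR and LCR means stand apart at the promoter tile (91.5% and 81.8%) and at the tile 1 kb on (74.6% and 59.5%), and lie closer together at most other tiles. Some tiles farther off have wider gaps than the promoter tile, in either direction. The widest is 83 kb before it (24.9% and 50.4%, where not all rats had a value).

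A difference of at least 5 points in one direction was confined, in the unbroken row of tiles around the promoter, to the promoter tile and the tile 1 kb on, a stretch of 2 kb. A positive sign alone ran through 8 consecutive tiles with values that span 20 kb (10611001 to 10631000). The row is unbroken only among tiles with values, since parts of these 20 kb held none. Here and below, before and beyond follow chromosome coordinates, whereas Dnmt3l lies on the minus strand in GRCr8. Within this row the differences did not shrink steadily with distance. They were 0.21 points at the tile 9 kb before the promoter tile, 4.48 and 3.86 points at the tiles 14 and 15 kb before it (10615001 and 10614001), and 0.30 points at the tile 18 kb before it. The row ended at a tile 19 kb before, with a difference of -0.0048 points, and at a tile 7 kb beyond, which was at 48.6% in HCR and 53.3% in LCR (difference -4.64 points, limma adjusted p = 0.923). Past that tile, HCR means were higher again 15 kb beyond (10644001, 76.1% and 67.1%, difference 8.99 points) and 18 kb beyond (10647001, 83.2% and 74.1%, difference 9.11 points), with overlapping groups and 95% intervals from -2.99 to 21.0 and from -7.02 to 25.2 points. The median difference of the neighbours was 3.30 points over the 3 tiles within 5 kb and 2.08 points over the 8 tiles from over 5 to 20 kb. It was -0.187 points over the 15 tiles from over 20 to 50 kb and 0.492 points over the 29 tiles from over 50 to 100 kb. The median over all tiles outside the 3 selected ones was 1.01 points. The medians of both classes up to 20 kb thus lay above it and those of both farther classes below it, while single tiles lay on either side of it in each range. At the edges of the window, the last tile inside (10729001) had a difference of 4.08 points and the next tile outside (10731001) -1.38 points. At the other edge the difference was 1.01 points inside (10537001) and -1.47 points outside (10524001).

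None of the 55 Dnmt3l neighbours passed an adjusted p under 0.1 with a difference of at least 5 points in limma, limits that 0.0858% of all tiles passed. None passed an unadjusted p under 0.005 with that difference either, which 1.03% of all tiles did. At an unadjusted p under 0.05 there were 3 higher and 3 lower in HCR, 10.9% of the neighbours beside 7.18% of all tiles. The smallest adjusted p in limma was 0.498. At the same adjusted limits the study's test on read counts called many more regions, the neighbour at 10713001 among them. A count of 0 in limma thus does not show that the lines were alike here. Of the 42 neighbours with a value in all 10 rats, 0 had groups that did not overlap, beside 1.89% of such tiles in the whole table. HCR was higher in 33 of the 55 neighbours (60.0%), against 64.7% of all tiles. Differences of at least 5 points went in 1 direction up to 20 kb, with 3 tiles higher in HCR, and in both directions beyond.

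A tile 84 kb from the promoter tile (10713001) was annotated by the study as an exon of Trpm2, which encodes a calcium-permeable cation channel, and was also chosen by it on these rats. It was at 98.3% ± 1.98 in HCR and 86.6% ± 7.36 in LCR (SD, n = 4 and 6), a difference of 11.7 points (SE 3.58, limma adjusted p = 0.498). Only 2 kb from it, the tile at 10715001 differed in the opposite direction. Its values were 54.3, 76.3, 72.8 and 77.8% in HCR rats 1, 11, 15 and 19 and 95.5, 90.7, 80.6, 79.0, 75.0 and 91.9% in LCR rats 12, 18, 22, 24, 26 and 30. LCR rat 26 lay among the HCR rats and the difference was -15.1 points (SE 5.62, limma adjusted p = 0.602). At 10661001, 32 kb from the promoter tile, the spread was wide, with 54.6% ± 14.1 in HCR and 43.7% ± 23.7 in LCR (difference 10.8 points, SE 12.6, limma adjusted p = 0.901). The largest absolute difference of the window stood 83 kb before the promoter tile (10546001), where HCR rats 1, 11 and 19 had 0, 46.7 and 28.1% and LCR rats 12, 18, 22, 24 and 26 had 47.9, 49.0, 48.9, 50.2 and 55.7%. HCR rat 15 and LCR rat 30 had no value there. The 8 rats did not overlap, HCR being lower by -25.4 points (SE 10.3), and the difference did not pass the test (limma, adjusted p = 0.661).

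The levels around Dnmt3l were spread much as those of all tiles. The median neighbour level was 70.7%, beside 62.3% over all tiles. Of the 55 neighbours, 20 (36.4%) had a mean between 20 and 80%, against 39.97% of all tiles. A mean under 5% was found in 7 neighbours (12.7%), against 15.4% of all tiles. In the tiles of intermediate level HCR was higher in 9 of 20, with a median difference of -2.09 points, against 3.48 points in all tiles of that level. Among the tiles under 5% no difference exceeded 4.42 points. At 10664001, 10694001, 10695001 and 10704001 the group means lay between 0.75 and 1.13% in both lines.

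The first Chd7 intron tile was at intermediate level. Its values were 52.4, 50, 48.3 and 68.7% in HCR rats 1, 11, 15 and 19. LCR rats 12, 18, 22, 24, 26 and 30 had 30.2, 36.5, 37.2, 46.9, 49.2 and 36.3%. LCR rat 26 lay above HCR rat 15, so the groups overlapped by less than 1 point. HCR rat 19 was the highest by a wide margin. The means were 54.9% ± 9.39 (SD, n = 4) and 39.4% ± 7.21 (SD, n = 6), a difference of 15.5 points, which was 10.8 points without HCR rat 19. With the number of tiles that lacked a value in each rat as a covariate it was 8.54 points.

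The second Chd7 intron tile had a smaller spread in both lines. HCR rats 1, 11, 15 and 19 had 39.0, 43.6, 44.0 and 53.0%, and LCR rats 12, 18, 22, 24, 26 and 30 had 33.3, 35.9, 37.8, 36.8, 37.6 and 27.6%. All HCR rats lay above all LCR rats, HCR rat 1 only narrowly. The means were 44.9% ± 5.86 (SD, n = 4) and 34.8% ± 3.92 (SD, n = 6), a difference of 10.1 points, or 7.35 points without HCR rat 19.

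**Figure D2:**
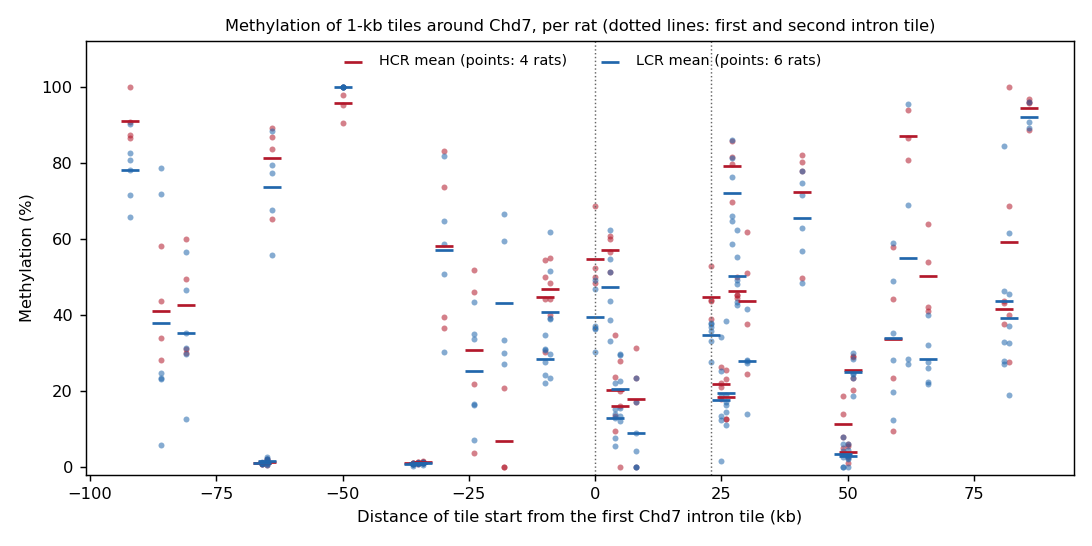
Percent methylation of each 1-kb tile (y axis) against the distance of its start from the start of the first Chd7 intron tile in kb (x axis, dotted lines at the first and second intron tile). Points are single rats and short bars are the means of 4 HCR and 6 LCR rats. HCR means lie above LCR means at most tiles of intermediate level, among them the first intron tile (54.9% and 39.4%), and the tile 18 kb before it is the main exception (6.98% and 43.3%).

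The tiles next to the first intron tile also had higher HCR means, up to 4 kb on one side and 10 kb on the other. On the near side, the tile 3 kb on (21850001) was at 57.2% ± 4.29 in HCR and 47.3% ± 10.8 in LCR (SD, n = 4 and 6), a difference of 9.95 points (SE 6.98, limma adjusted p = 0.823). The next tile (21851001) was at 20.4% and 12.9%, a difference of 7.46 points. The tile after that, 5 kb on (21852001), was lower in HCR by -4.50 points. On the other side no tile had values until 9 kb before, where 21838001 differed by 6.10 points (SE 8.19, limma adjusted p = 0.918). The tile 10 kb before (21837001), a Chd7 intron tile that the study also chose on these rats, had 44.2, 50, 30.2 and 54.5% in HCR rats 1, 11, 15 and 19. LCR rats 12, 18, 22, 24, 26 and 30 had 22.1, 31.2, 27.8, 30.9, 24.2 and 34.8%. HCR rat 15 fell inside the LCR range and the other 3 HCR rats lay above it. The difference was 16.2 points (SE 5.79, limma adjusted p = 0.582).

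The row of consecutive tiles with a higher HCR mean thus spanned 5 tiles and 15 kb (21837001 to 21852000), and all 5 had differences of at least 5 points with all rats. This row of 5 was lost on removing 1 rat, since 21838001 differed by 2.63 points without LCR rat 26, 3.36 points without HCR rat 15 and 3.898 points without LCR rat 30. It was also lost with the rat means set equal (4.19 points at 21838001) and with quantile normalization (2.19 points at 21838001). With the missing tiles as a covariate it was lost as well (3.46 points at 21850001). The row of higher HCR means stopped 18 kb before the first intron tile at the largest fall of either window. There (21829001) HCR rats 1, 15 and 19 had 21.0, 0 and 0%, and LCR rats 12, 18, 22, 24 and 30 had 30, 33.3, 59.5, 66.7 and 27.1%. HCR rat 11 and LCR rat 26 had no value. The 8 rats did not overlap, and the difference of -36.3 points (SE 10.8) did not pass the test (limma, adjusted p = 0.511). Beside the second intron tile, the nearest tile on one side started 2 kb on (21872001) and differed by 4.28 points (limma adjusted p = 0.910). On the other side the nearest tile with values was 15 kb away (21855001) and differed by 9.03 points (limma adjusted p = 0.820).

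Higher HCR means recurred through the whole Chd7 window. The median difference was 7.46 points over the 3 neighbours within 5 kb of the first intron tile and 7.56 points over the 4 from over 5 to 20 kb. Over the 14 from over 20 to 50 kb it was 0.944 points, and over the 13 from over 50 to 100 kb it was 3.07 points. The median over all tiles outside the 3 selected ones was 1.01 points, so the class from over 20 to 50 kb lay just below it. In the last class 6 of 13 tiles were higher in HCR by at least 5 points and 0 were lower by that much. At the edges, the last tile inside on one side (21755001) had a difference of 13.0 points and the next outside (21741001) 6.998 points. At the other edge the difference was 2.32 points inside (21933001) and 22.1 points outside (21951001). No distance within the window thus marked an end to the higher HCR means. HCR was higher in 64.7% of all tiles as well, so this does not give an extent for the difference at the Chd7 intron tiles.

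**Figure D3:**
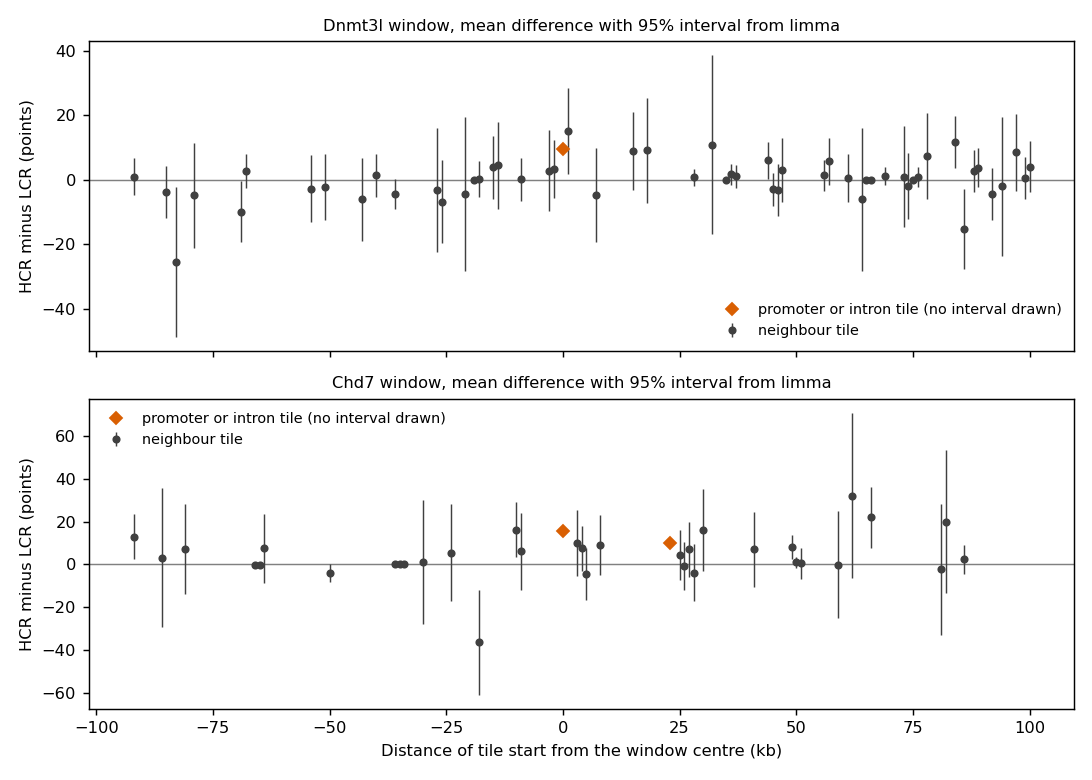
Mean difference HCR minus LCR in percentage points (y axis) of each tile against the distance of its start from the window centre in kb (x axis), for the Dnmt3l window (upper panel) and the Chd7 window (lower panel). Circles are neighbours with the 95% interval from limma, not adjusted for the number of tiles, and diamonds are the 3 selected tiles, drawn with no interval. The Dnmt3l neighbours scatter on both sides of 0 (median 0.559 points), while 25 of the 34 Chd7 neighbours lie above it (median 3.68 points).

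At the far end of the window stood a further Chd7 intron tile that the study chose on these rats, 66 kb from the first (21913001). HCR rats 1, 11, 15 and 19 had 54.1, 42.2, 41.1 and 64.0%, and LCR rats 12, 18, 22, 24, 26 and 30 had 27.5, 32.1, 21.8, 40, 26.2 and 22.5%. Every HCR rat lay above every LCR rat, HCR rat 15 by about 1 point over LCR rat 24. The difference was 22.004 points (SE 6.44), the one with the smallest adjusted p of the window (limma, 0.462). Beyond the window, 133 kb from the first intron tile, the study listed an exon tile at a CpG shore (21980001), also chosen on these rats. Its values were 84.9, 74.4, 51.3 and 78.1% in HCR rats 1, 11, 15 and 19 and 43.3, 53.8, 40, 72.5, 44.8 and 53.0% in LCR rats 12, 18, 22, 24, 26 and 30, a difference of 21.0 points (SE 8.31, limma adjusted p = 0.640). HCR rat 15 lay inside the LCR range and the other 3 HCR rats lay above it.

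None of the 34 Chd7 neighbours was called in limma at an adjusted p under 0.1 with 5 points, and none at an unadjusted p under 0.005 with 5 points. At the adjusted limits the study's test on read counts had called the intron tiles at 21837001 and 21913001. The 0 calls in limma thus do not show that the lines were alike at this locus. At an unadjusted p under 0.05, 4 were higher and 1 was lower in HCR, 14.7% of the neighbours beside 7.18% of all tiles, and 2 of the 4 were the intron tiles chosen by the study. Of the 25 neighbours with a value in all 10 rats, 1 had groups that did not overlap, the intron tile at 21913001, beside 1.89% in the whole table. HCR was higher in 25 of 34 neighbours (73.5%) against 64.7% of all tiles, and 17 of 34 differed by at least 5 points against 33.6% of all tiles. The tiles share the same rats, so these shares are a description and were not tested as a group.

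The other wide differences at Chd7 rested on few or scattered rats. The tile 62 kb from the first intron tile (21909001) was at 87.1% ± 6.57 in 3 HCR rats and 55.04% ± 33.2 in 4 LCR rats, a difference of 32.0 points (SE 16.6, limma adjusted p = 0.751). The tile 82 kb on (21929001) differed by 19.95 points with an HCR SD of 32.3 points (SE 14.9, limma adjusted p = 0.837). A smaller difference at low level stood 49 kb on (21896001), with 11.4% ± 6.12 in HCR and 3.48% ± 3.20 in LCR (SD, n = 4 and 6), 7.95 points (SE 2.55, limma adjusted p = 0.53).

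Tile levels differed between the genes. The median neighbour level at Chd7 was 34.9%, below the 62.3% of all tiles, and 19 of 34 neighbours (55.9%) had a mean between 20 and 80%, against 39.97% of all tiles. In these 19 tiles HCR was higher in 15, with a median difference of 6.99 points beside 3.48 points in all tiles of that level. A set of 3 adjoining tiles 36 to 34 kb before the first intron tile (21811001, 21812001 and 21813001) was nearly free of methylation, with group means between 0.81 and 1.29%. In the 6 neighbours under 5% no difference exceeded 0.880 points. The spread between rats was also wider around Chd7. The median SD of the neighbours was 6.66 points in HCR and 9.65 points in LCR, beside 4.43 and 5.52 points around Dnmt3l and 5.38 and 6.21 points over all tiles.

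**Figure D4:**
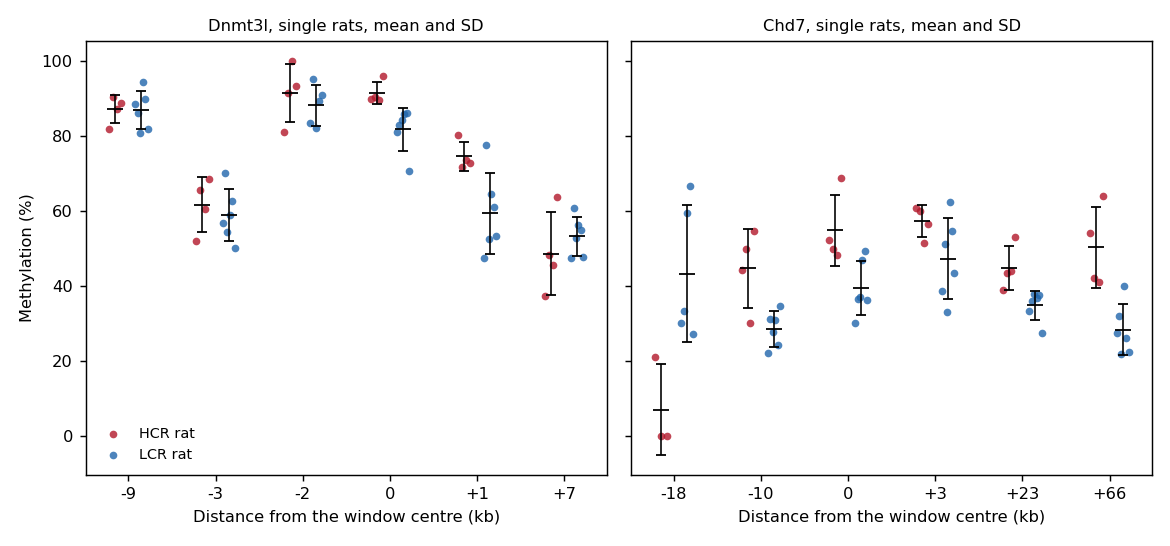
Percent methylation (y axis) of single HCR and LCR rats at tiles of the Dnmt3l window (left panel) and the Chd7 window (right panel), named by the distance of their start from the window centre in kb (x axis). Bars are the mean and SD of each group. HCR rats lie above LCR rats without overlap at the Dnmt3l promoter tile, the second Chd7 intron tile and the Chd7 tile at 66 kb. At the Chd7 tile at -18 kb, where not all rats had a value, HCR rats lie below LCR rats without overlap. HCR rat 15 (48.3%) lies below LCR rat 26 (49.2%) at the first Chd7 intron tile.

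The differences in the windows stood beside a difference in the mean level of the libraries. Across 126459 tiles that no rat lacked, the mean level was 48.5% ± 2.39 in HCR (SD, n = 4, range 46.2 to 51.3%) and 46.6% ± 2.31 in LCR (SD, n = 6, range 43.9 to 49.8%). HCR rats lacked a value in 2023 to 10240 tiles and LCR rats in 5287 to 19022. The mean over the 25 complete Chd7 neighbours was 27.9, 33.4, 28.8 and 34.6% in HCR rats 1, 11, 15 and 19. In LCR rats 12, 18, 22, 24, 26 and 30 it was 22.2, 31.6, 23.4, 33.2, 24.9 and 23.2%. The group means were 31.1% ± 3.33 and 26.4% ± 4.73, and LCR rats 18 and 24 lay among the HCR rats. HCR rats 11 and 19 and LCR rats 18 and 24 were the highest 4 rats in the mean over all tiles, over the Chd7 neighbours and over the Dnmt3l neighbours. Around Dnmt3l the group means were 52.8% ± 2.47 and 51.6% ± 2.85. How far the mean level or the missing tiles shape the differences in the windows was not tested.

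With the rat means set equal, the median difference of the Chd7 neighbours was 1.77 points and that of all tiles -0.904 points. HCR was then higher in 52.9% of the Chd7 neighbours and 42.8% of all tiles. The Dnmt3l neighbours had a median of -1.35 points, with 34.5% higher. The 3 selected tiles remained higher in HCR. Their differences were 7.73 points at the Dnmt3l promoter, 13.5 points at the first and 8.14 points at the second Chd7 intron tile. This setting lowered the difference of every complete tile by the same amount. Tiles selected for a wide difference therefore had to stay higher, and this is no test of them. Tiles with nearly equal values in both groups became lower in HCR through the same shift, so the smaller shares follow in part from the setting. With the number of missing tiles as a covariate the Chd7 median was 0.268 points, close to the 0.286 points of all tiles.

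**Figure D5:**
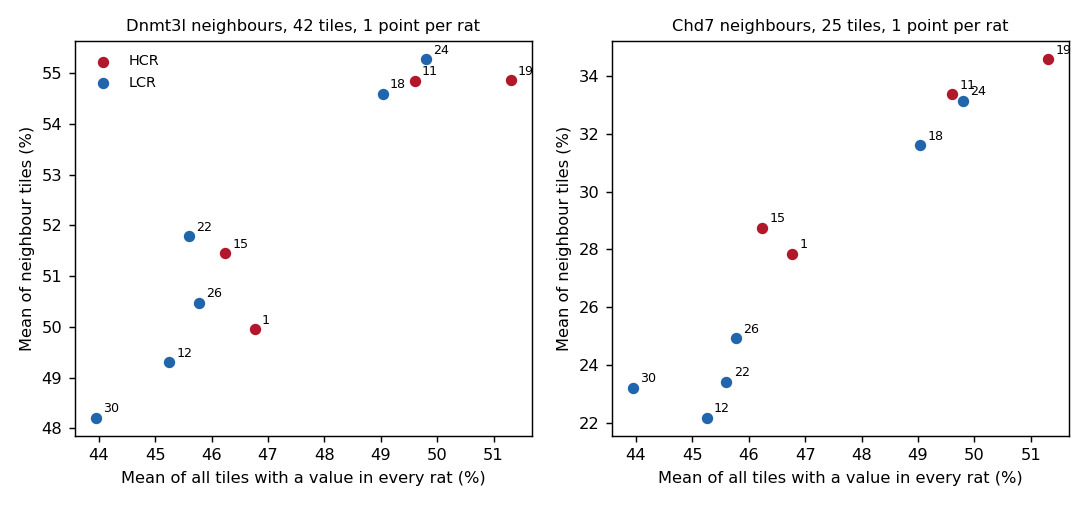
Mean percent methylation of each rat over the complete neighbours (y axis; 42 Dnmt3l tiles in the left panel, 25 Chd7 tiles in the right) against its mean over all complete tiles (x axis), with rat numbers beside the points. HCR rats 11 and 19 and LCR rats 18 and 24 are the highest 4 in each, and the group means lie farther apart around Chd7 (31.1% and 26.4%) than around Dnmt3l (52.8% and 51.6%).

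The other genes of the same machinery could be read only through tiles that the study's tables assign to a gene, all chosen by the study on these rats, so their directions are not independent evidence. The larger of these tables continues past the rows used here, so the numbers of genes with a tile are minimum counts. Of 23 genes of the DNA methylation machinery 4 had such a tile. Without the Dnmt3l promoter tile, 2 of 3 tiles were higher in HCR and 0 passed the adjusted limits of limma, with a median of 12.2 points. Dnmt1, the maintenance methyltransferase, had an exon tile (chromosome 8, 19459001 to 19460000) at 98.3% in HCR and 86.1% in LCR (limma adjusted p = 0.408, 3 and 5 rats). Kdm1b, a demethylase of histone H3 lysine 4, had an exon tile at 55.1% and 33.7% (limma adjusted p = 0.517), and Nsd1, a methyltransferase of histone H3 lysine 36, had an exon tile at 22.2% and 48.9% (limma adjusted p = 0.565, 3 and 4 rats). Of 10 CHD remodeller genes 3 had a tile, and 4 of the 5 tiles outside the selected ones were higher in HCR, 3 of them in Chd7, with 0 passing the limits and a median of 16.2 points. The Chd6 exon tile was at 100% in every HCR rat and 95.04% in LCR (limma adjusted p = 0.71), and the Chd5 exon tile was lower in HCR, at 81.5% and 90.7% (limma adjusted p = 0.463). Of 13 BAF and PBAF subunit genes 1 had a tile, an exon of Actl6b, which encodes a neuronal subunit, at 92.0% and 83.7% (limma adjusted p = 0.541). At an unadjusted p under 0.05, 3 of the 3 machinery tiles, 4 of the 5 CHD tiles and the Actl6b tile passed, beside 7.18% of all tiles, and since all were selected on this contrast nothing is read from these counts.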

How the data were processed

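RRBS profiled the hippocampus of 4 HCR and 6 LCR rats. The deposited values are percent methylation per 1000 bp tile. The authors used Trim Galore 0.6.10 for trimming, FastQC and MultiQC for quality control, and Bismark with Bowtie2 for alignment to mRatBN7.2 (rn7). Tiles of at least 3 covered CpGs were then built with methylKit. Read counts were not used, so the depth of a tile is unknown and the study's test on counts, which had been planned as the main test if counts were at hand, was replaced by a test on percent values. HCR libraries that the authors dropped are not analysed here, nor are VO2max, proteins and behavior. The authors dropped them after quality control that used sequencing and a principal component analysis, and kept all LCR libraries. Whether this narrowed the spread of the HCR rats was not tested.

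Each rat was 1 replicate, grouped by its label. Tiles with at least 3 values in each group were compared by limma 3.58.1 (R 4.3.3) without covariates and with a trend of the variance on the mean. Benjamini-Hochberg adjustment ran over 176004 tiles and left out 28 tiles with 1 value in every rat. Tiles were called at an adjusted p under 0.1 and 5 points or more. These limits called 151 of the 176004 tiles, far fewer than the study's test on read counts called at the same limits. Whether missing values follow the depth of a library was not tested. The script was tested on simulated data. Summaries and figures were made in Python 3.11.15 with NumPy 2.4.6, pandas 2.3.3 and Matplotlib 3.10.9.

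The tiles, gene lists and tests were chosen with earlier results of these data known. Named tiles were the 3 selected tiles, other Dnmt3l or Chd7 tiles of the study's tables, the nearest tile with values on either side, and per window each called tile, each complete tile without overlap and the 5 largest absolute differences. The tile over each transcription start, also in the rule, was not located, since no annotation of mRatBN7.2 was used here. The tiles at 10611001, 10614001, 10615001, 10620001, 10626001, 10636001, 10644001, 10647001, 21851001, 21852001, 21896001 and 21755001, and those at the ends of rows and windows, were named after their values were seen. List genes are at most 3 per list with the smallest p. Genes came from the first 1999 rows of the study's table of regions, which is longer than that, and the 662 rows of its VO2max table, and promoter sequence and gene order from RefSeq (GRCr8), where 1 of 2 symbols had a promoter entry. Alternatives were the logit scale with an offset of 0.5%, tiles complete in all rats, no trend, rat means set equal, quantile normalization, the number of missing tiles as a covariate, other limits, and leaving out each rat.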

Additional observations from a re-analysis of the deposited data

Results flagged for a closer look

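In 35 groups of 4 to 10 rats at the named tiles, 2 had a rat that stood apart from the rest by Dixon's test, where chance gives about 1 in 20. Both were at the Dnmt3l promoter tile. HCR rat 19 was the highest of its group at 95.9%, with the nearest HCR rat at 90.5% (gap over range 0.863, 4 rats). LCR rat 30 was the lowest of its group at 70.8%, with the nearest LCR rat at 81.0% (gap over range 0.662, 6 rats). Without LCR rat 30 the difference at this tile was 7.42 points, without HCR rat 19 it was 8.16 points, and with all rats 9.64 points. These 2 rats were also the highest and the lowest of all rats in mean level over all complete tiles (51.3% and 43.9%). Whether that shaped their values at this tile was not tested.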

How the results depend on the processing

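The count of called neighbours was 0 in both windows with limma under every alternative, including an unadjusted p under 0.005. The limit of 10 points and the adjusted p under 0.05 are stricter than the main limits. Their count could therefore only be 0. At an unadjusted p under 0.05 alone, 6 Dnmt3l and 5 Chd7 neighbours passed. The 19 named tiles gave 285 values under an alternative, and all 285 had the direction of the main value. Part of these values could not differ from the main one. Dropping the trend, keeping only complete tiles, or leaving out a rat without a value does not change a tile's difference. Several of the tiles were also named for a large difference or chosen by the study on this contrast. The count of 285 is therefore no measure of robustness. Among the values with a test, the smallest adjusted p in limma was 0.300, at the Trpm2 exon tile without LCR rat 22, so no value crossed the threshold. Leaving out 1 rat gave 7.42 to 10.5 points at the Dnmt3l promoter tile, 12.7 to 18.7 points at the tile 1 kb on, 10.8 to 17.6 points at the first and 7.35 to 12.0 points at the second Chd7 intron tile, and 17.5 to 25.1 points at the intron tile 66 kb on. The tile at 21829001 ranged from -40.4 to -30.5 points and the tile at 10546001 from -26.0 to -24.1 points over the 7 rats whose removal left enough values. No HCR rat with a value at either tile could be left out, since at least 3 values per group were required. These ranges thus do not show how far the differences rest on a single HCR rat. Other named tiles moved by over 1.5 times when 1 rat was left out: 0.45 to 6.76 points at 10627001, 3.51 to 16.0 at 10661001, 2.63 to 10.3 at 21838001, 4.57 to 15.03 at 21855001, -17.6 to -9.79 at 10715001, 1.09 to 7.59 at 21872001 and 6.32 to 30.4 at 21929001. The tile at 21909001 ranged from 22.7 to 45.5 points and was at 14.3 points with the missing-tile covariate. There too, no HCR rat with a value could be left out. With the number of missing tiles as a covariate, the difference at the first Chd7 intron tile was 8.54 points instead of 15.5. The median over the Chd7 neighbours moved from 3.68 points to 1.09 points without LCR rat 30, 1.86 points without HCR rat 19, 6.18 points without HCR rat 1 and 7.16 points without LCR rat 18. Over the Dnmt3l neighbours it ranged from 0.0441 points (without LCR rat 30) to 1.17 points (without HCR rat 1). Quantile normalization gave medians of -0.247 points at Dnmt3l and 1.60 points at Chd7, beside -0.0386 points over all tiles, and the logit scale gave 0.708 and 4.06 points. No paired analysis was possible because the groups share no rat numbers. With 4 and 6 rats the 95% interval at a tile of intermediate level could be wide, as at 10626001 (-9.76 to 15.4 points), so a difference of several points was not detectable there.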

Other observations

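Some tiles elsewhere in the genome had nearly the same pattern over the 10 rats as the 3 selected tiles, after each tile's own mean was subtracted, and the measure of likeness is the mean absolute difference between the profiles. The profiles share the rats, so likeness is a description and says nothing of shared function. Closest to the Dnmt3l promoter tile was an exon tile of Dmpk and Six5 on chromosome 1 (78738001 to 78739000), at 1.16 points, with 70.1% in HCR and 61.2% in LCR. The next were tiles on chromosome 13 (86430001) at 1.49 points and chromosome 8 (6849001) at 1.58 points. Closest to the first Chd7 intron tile was an intergenic or unannotated tile on chromosome 2 (3423001) at 2.08 points, followed by tiles on chromosome 13 (68977001) at 2.65 points and chromosome 17 (16955001) at 2.71 points. Closest to the second was a tile upstream of Ndrg2 and Tppp2 on chromosome 15 (24611001) at 1.53 points, with 69.6% in HCR and 60.4% in LCR, followed by tiles on chromosome 16 (74643001) at 1.57 points and chromosome 18 (8013001) at 1.81 points.

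Within the windows the choice was among far fewer tiles, so the likeness values there are not set against those above. Ranks over all complete tiles are given as a description only. The complete tile nearest in pattern to the first Chd7 intron tile was the second, at 5.19 points (rank 791 of 126458 tiles compared), and the intron tile 66 kb on followed at 5.39 points. Seen from the second intron tile the same pair ranked 47207, and 5.19 points exceeded that tile's own mean absolute deviation of 4.82 points. The first and second intron tiles and the one 66 kb on had each been picked for a difference between the lines. Part of their likeness therefore follows from that selection, as it does for the Dnmt3l promoter tile and the Trpm2 exon tile. Around Dnmt3l the tile 57 kb on (10686001) was nearest at 3.36 points, and the Trpm2 exon tile followed at 3.80 points. The tile 1 kb beside the promoter tile was at 6.73 points, above the promoter tile's own mean absolute deviation of 4.77 points.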
